A study of Caenorhabditis elegans with 20 samples.

Results

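The genes described here are the sperm gene families of Caenorhabditis elegans: the major sperm protein genes (msp) and the nspd, ssp and ssq families. A gene was included if its WormBase name, matched through the sequence name in the count table, began with msp-, nspd-, ssp- or ssq- and at least 1 library gave it 10 counts or more. Of 62 genes so named among the 21383 genes of the table, 57 were included: 32 msp, 10 nspd, 11 ssp and 4 ssq genes. The 5 left out were msp-52, msp-79, msp-113, nspd-8 and ssp-32. Of the 57, 4 are annotated as pseudogenes (msp-37, msp-42, msp-71 and nspd-11).

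The libraries came from whole hermaphrodites of 2 transgenic strains at 2 ages, with 5 biological replicates, lettered A to E, in each of the 4 groups. The control strain carried rde-1(ne300) and unc-119(ed3) with an extrachromosomal array of unc-119(+). The elt-2 overexpressing strain carried the same alleles and marker with elt-2:GFP added to the array, driven by the upstream region of elt-2 itself, so both strains were rde-1 mutant and unc-119 rescued, and each was 1 line. ELT-2 is the GATA transcription factor of the intestine, a tissue that makes no sperm. The ages were the L4 larval stage and Day 13 of adulthood, and the older animals, unlike the L4 larvae, had been kept on FUDR plates, so age and drug cannot be told apart. The same approximate time on food before collection is stated for all L4 libraries.

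A hermaphrodite makes a fixed stock of sperm around the L4 stage, and its germ line then switches to oocytes. Nematode sperm crawl rather than swim: the major sperm proteins form the filaments of the crawling foot, and MSP released from sperm is also the signal that sets off oocyte maturation and ovulation. The ssp genes encode small proteins of the sperm-specific class P, which share the MSP domain, the ssq genes belong to the sperm-specific class Q, and the nspd genes encode short nematode-specific peptides of group D. Most are transcribed before the meiotic divisions of the spermatocyte, because a mature sperm makes no new RNA.

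The members are short genes with similar copies. Of the 32 msp genes, 26 are annotated at the same length, 384 bases, and reads from copies that near-identical can be shared or lost in the mapping, so the split of counts between members of the msp family is uncertain while their sum is less so. The genome annotation WBcel235 places 30 members on chromosome IV and 17 on chromosome II, with 7 on chromosome I, 2 on chromosome V, 1 on chromosome III and 0 on the X chromosome. The msp genes lay only on chromosomes II (15) and IV (17), and the 4 ssq genes all on chromosome IV. Of the 57, 6 overlap another annotated gene, 3 of them on the opposite strand (msp-33, msp-38 and ssq-4), and whether the counting used strand is not given in the sources used here.

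Library totals ran from 10749795 to 42317549 counts. All values below are CPM (counts in each library relative to its size) scaled by trimmed mean of M values (TMM) over the 20 libraries, unless they are given as a share of the library's own total. The assay (3SEQ) reads the 3′ end of each poly-A RNA, so CPM can be set side by side between genes without a correction for length. The labels were checked with elt-2: in every letter it was higher in the overexpressing library, at 3.15 to 10.1 CPM against 0.674 to 3.49 CPM at L4 and at 5.37 to 7.41 CPM against 0.958 to 1.34 CPM at Day 13. The transgene ends in the unc-54 3′UTR, so how much of its RNA was counted as elt-2 was not tested.

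At L4 the sperm families were among the most abundant RNAs of the worm in letters A to C and scarce in letters D and E. Together they held 1.03%, 1.07%, 1.13%, 0.134% and 0.0203% of all counts in the control libraries A to E. In the overexpressing libraries the shares were 1.53%, 1.31%, 1.61%, 0.345% and 0.169%. In both strains the letters A, B and C stood together, D lay well below them and E was the lowest. The control shares of A to C were 7.71 to 55.6 times those of D and E, and the overexpressing shares 3.81 to 9.51 times.

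The msp genes were the largest family in 8 of the 10 L4 libraries, and the nspd genes in the control libraries B and C. They held 0.485%, 0.425%, 0.441%, 0.0738% and 0.0105% of counts in the control libraries A to E (mean 0.287% ± 0.226, SD, n = 5), and 0.848%, 0.582%, 0.740%, 0.205% and 0.102% in the overexpressing libraries (mean 0.495% ± 0.328). The 10 nspd genes held 0.359%, 0.467% and 0.497% in the control libraries A to C, and the 4 ssq genes 0.128% to 0.152%. The 11 ssp genes held the least in these 3 libraries, at 0.0369% to 0.0482%. At Day 13 each family held 0.0591% or less in every library.

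**Figure D1:**
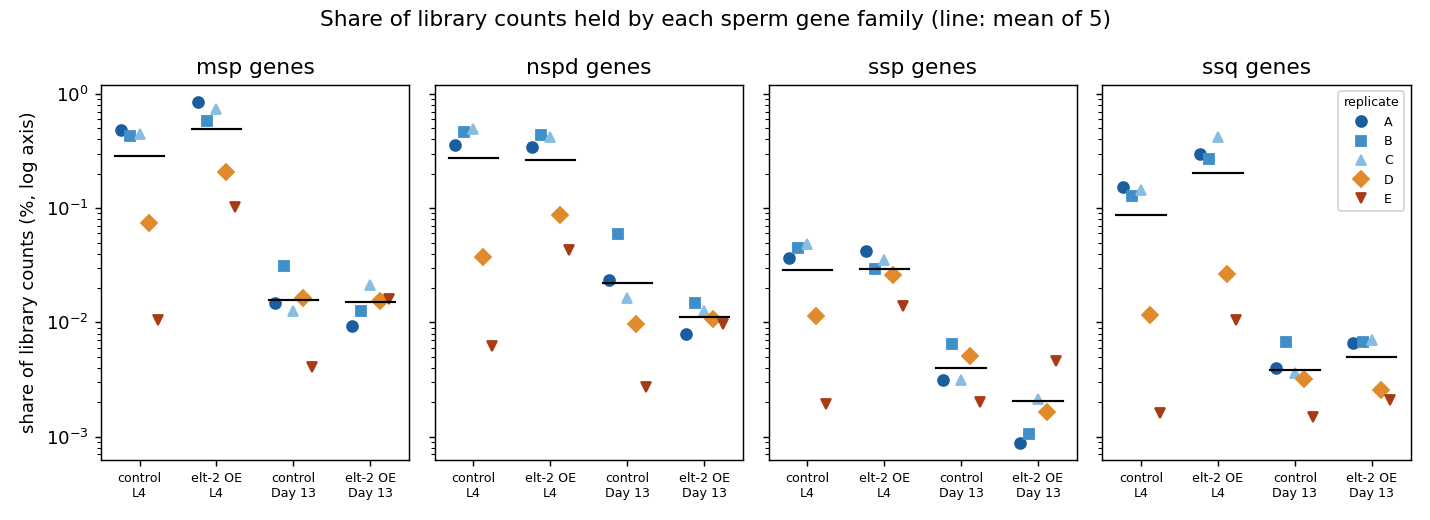
Share of each library's counts held by the msp, nspd, ssp and ssq genes, in percent on a log axis, for the 4 groups; each point is 1 library, marked by its replicate letter, and the line is the mean of 5. In both L4 groups the letters A to C lie above D and E in every family, and the Day 13 libraries lie far below the L4 libraries A to C.

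Single members differed widely in level. In the control L4 library A, 29 of the 53 protein-coding members reached 100 CPM while 3 stayed under 1 CPM, and in the control L4 library E these counts were 0 and 18. The most abundant was nspd-2, with 1871, 2290.3, 2739.8, 109 and 21.4 CPM in the control L4 libraries A to E and 1608, 2471, 1747, 232 and 154 CPM in the overexpressing ones. Among all genes it ranked 138th, 141st, 122nd and 480th in the control L4 libraries A to D, and in library E nspd-1 ranked above it. The next genes of the nspd family were nspd-1, at 1112 ± 978 CPM over the 5 control L4 libraries, and nspd-5, at 505 ± 455 CPM; the 3 highest genes of each control L4 library gave 73.8% to 77.4% of the counts of the family.

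The msp family was spread more evenly. Its top gene in the control L4 group was msp-64, with 717, 746, 653, 60.9 and 14.7 CPM in letters A to E, and 1024, 1195, 1281, 148 and 121 CPM in the overexpressing group. It was followed by msp-45 (416 ± 371 CPM) and msp-50 (385 ± 344 CPM), and the top 3 genes gave only 29.5% to 39.5% of the family's counts in the control L4 libraries. In letters D and E of both strains the leading msp gene was msp-40, which reached 106 and 27.5 CPM in the control libraries against 575, 486 and 423 CPM in A to C. Its overexpressing libraries gave 1124, 1022, 868, 289 and 232 CPM.

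Among the sperm-specific class Q genes, ssq-1 led with 1106, 858, 1009.7, 53.4 and 9.46 CPM in the control L4 libraries and 1659, 1718, 2315, 113 and 60.0 CPM in the overexpressing ones. The other leading ssq genes were ssq-2 (544 ± 479 CPM in control L4) and ssq-4 (129 ± 119.7 CPM). Of the MSP-domain class P genes, ssp-16 was the highest, with 221, 340.4, 338, 49.4 and 18.5 CPM in the control group and 165, 136, 153, 87.1 and 85.9 CPM in the overexpressing group. It was followed by ssp-31 (94.1 ± 83 CPM) and ssp-33 (39.7 ± 34.5 CPM). For ssp-16 the overexpressing libraries of letters A to C lay below, and those of D and E above, their control partners.

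In the K07F5 group, close neighbours on the chromosome did not share a level. The K07F5 sequences on chromosome IV hold msp-81, msp-10, msp-56, nspd-2, ssp-10 and ssq-1 close together. Their mean control L4 levels were 206, 0.411, 4.66, 1406, 10.7 and 607 CPM. For the msp genes among them the split of counts between similar copies is uncertain, and other groups of neighbours were not compared. At the low end of all members were msp-32, msp-37, nspd-11 and ssp-36, which were too low for the filter on counts in the L4 comparison.

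The comparison of the strains at L4 asked whether extra elt-2 changed the sperm RNAs at the stage when they are made. No member passed the test: 0 of the 53 tested, beside 0.0345% of all 8696 genes tested (adjusted p under 0.10 by the Benjamini-Hochberg method, from the quasi-likelihood fit of edgeR). At an unadjusted p under 0.05, 5 members were higher in the overexpressing strain and 0 were lower, beside 4.5% of all genes higher, and the Wald test of DESeq2 called 2 higher (msp-56 and ssp-35), beside 1.67% of all genes higher. Over the 53 members the median log2 change was -0.04, beside 0.05 over all genes tested, and 26 were positive.

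The 5 members with the lowest p were ssp-35, msp-56, ssp-9, ssp-11 and nspd-3, all but nspd-3 at under 30 CPM. For msp-56 the control libraries A to E gave 5.87, 6.02, 3.97, 6.45 and 1.01 CPM and the overexpressing libraries 23.6, 7.72, 11.2, 18.9 and 13.5 CPM (log2 change 1.63 ± 0.53 SE, edgeR adjusted p = 0.383). Every overexpressing library lay above every control library, which held for 1 of the 53 tested members, beside 1.1% of all genes. For ssp-35 the control libraries gave 1.31, 1.18, 1.84, 2.86 and 0.591 CPM and the overexpressing libraries 3.35, 2.26, 3.40, 6.14 and 5.86 CPM (1.40 ± 0.45, adjusted p = 0.383); the groups overlapped, although each overexpressing library lay above the control of its letter.

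The other members at the head of the list showed the same order within letters. The class P gene ssp-11 had 1.90, 2.49, 2.38, 0.859 and 0.177 CPM in control and 8.27, 4.99, 9.29, 2.52 and 1.26 CPM in overexpressing larvae (1.67 ± 0.71, adjusted p = 0.462). Its relative ssp-9 had 1.63, 1.75, 1.88, 0.668 and 0.355 CPM against 4.82, 2.60, 4.81, 2.26 and 1.53 CPM (1.27 ± 0.52, adjusted p = 0.448). For nspd-3 the values were 29.8, 24.2, 34.7, 14.2 and 2.78 CPM against 97.7, 56.3, 70.7, 40.2 and 25.9 CPM (1.39 ± 0.63, adjusted p = 0.473). In each of these 3 genes every overexpressing library lay above the control of its letter, while the groups overlapped.

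Same-lettered L4 libraries deviated together, but libraries of different letters were not set against each other. A fit with the letter as a block called 4 members higher and 0 lower: ssp-11 (log2 change 1.75 ± 0.31, edgeR adjusted p = 0.0601), ssp-9 (1.37 ± 0.30, 0.0894), ssq-3 (1.33 ± 0.30, 0.0923) and nspd-3 (1.66 ± 0.39, 0.0984). This was 7.55% of the members tested, beside 0.793% of all genes higher in that fit. At an unadjusted p under 0.05 the blocked fit had 18 members higher and 0 lower, beside 10.6% of all genes higher. Its median log2 change over the members was 0.55, beside 0.09 over all genes, with 44 of 53 positive, so the members' median differed in sign from that of the fit without the block. The number of calls depended on single letters, for all genes as for the members: the blocked fit called 0 members without A, without B or without C, where it called 1, 0 and 0 of all genes, 1 member without D (ssp-11, of 180 genes) and 2 without E (nspd-3 and ssp-11, of 310 genes), against 211 genes with every letter. The members' median was 0.84, 0.83 and 0.90 without A, B and C, 0.53 without D and 0.08 without E.

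Behind these counts the letters did not do the same thing. In letter D, 53 of the 57 members were higher in the overexpressing library, with a median difference of 1.03 on the log2(CPM + 0.5) scale, and in letter E 56 of 57 were higher, with a median of 2.54. In letters A, B and C, 33, 28 and 25 members were higher, with medians of 0.19, -0.01 and -0.29. Of the 53 members tested, 52 were higher in both D and E, beside 28.1% of all genes, and 18 were higher in all 5 letters, beside 10.9% of all genes.

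In D and E the difference ran across the families. The median difference in letter E was 2.68 for msp, 2.51 for nspd, 2.07 for ssp and 2.08 for ssq genes, and in letter D 1.16, 1.03, 1.03 and 0.84. A fit on letters D and E alone had a positive change for 50 of the 50 members tested, with a median of 1.68 beside -0.02 over all genes, and 21 passed an unadjusted p under 0.05 in that direction, beside 3.85% of all genes; 0 passed the adjusted threshold. Letters D and E were set apart with earlier results of these data known, so these values are a description.

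**Figure D2:**
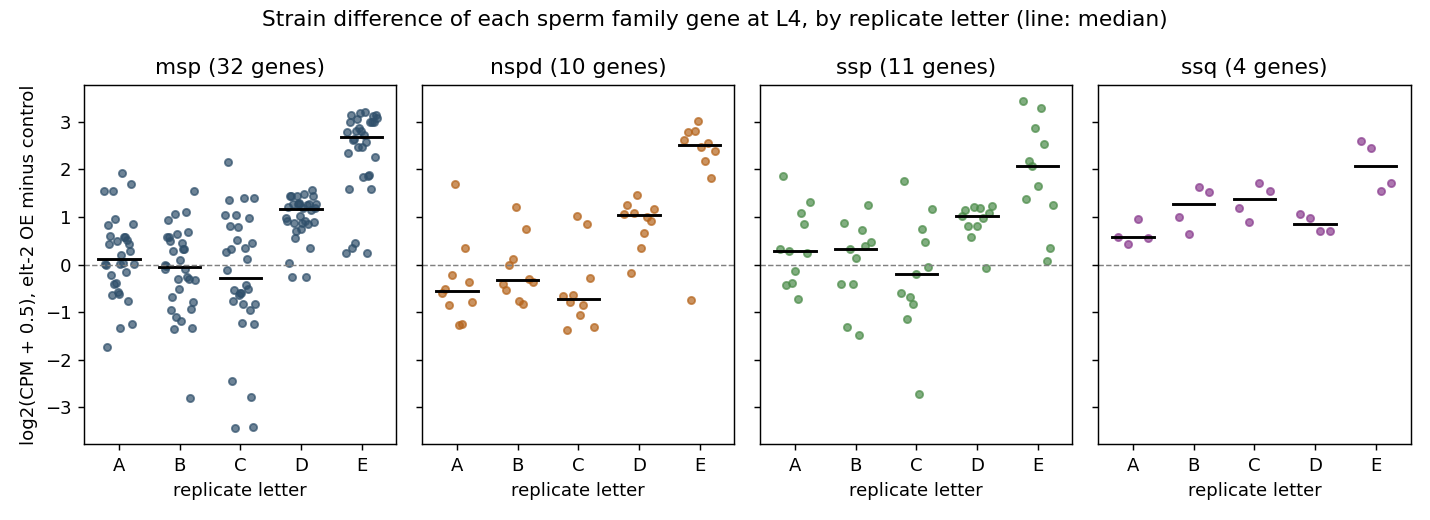
Difference between the overexpressing and the control L4 library of the same replicate letter, as log2(CPM + 0.5), for each of the 57 genes by family; each point is 1 gene and the line is the median. In letters A to C the points lie on both sides of 0 except for the ssq genes, and in letters D and E nearly all lie above 0.

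In letters A to C the members split by identity. All 4 ssq genes were higher in the overexpressing library in each of the 5 letters, with median differences of 0.57, 1.26 and 1.37 in A, B and C. For ssq-3 the control libraries A to E gave 50.3, 34.9, 40.6, 5.83 and 2.01 CPM and the overexpressing ones 97.8, 110.0, 135, 9.76 and 6.81 CPM. The 7 nspd genes other than nspd-2, nspd-3 and nspd-6 were lower in A, B and C alike. Of these, nspd-5 had 790.1, 737 and 968 CPM in the control and 332, 415 and 539.6 CPM in the overexpressing libraries A to C, while in D and E it turned to 24.5 and 7.45 against 39.1 and 35.3 CPM. Among the msp genes 10 were higher and 10 lower in all of A, B and C.

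A fit on letters A to C alone called 13 members higher and 10 lower of 56 tested, beside 15.6% higher and 17.2% lower over all genes, so many genes of every kind were called there. The higher members included ssp-11 (log2 change 1.66 ± 0.33, edgeR adjusted p = 0.0222), ssq-3 (1.37 ± 0.29, 0.0231), msp-56 (1.35 ± 0.45, 0.0631) and nspd-3 (1.27 ± 0.32, 0.0289), and the lower ones nspd-5 (-1.03 ± 0.28, 0.0366), ssp-16 (-1.06 ± 0.29, 0.0354), msp-36 (-0.77 ± 0.25, 0.0606) and msp-77 (-1.19 ± 0.30, 0.0286). The direction of the smaller differences in A to C depended on the scaling. With each library's plain total in place of TMM, 43, 33 and 29 of the 57 members were higher in A, B and C, and 12 rather than 20 were lower in all 3; the 4 ssq genes stayed higher in all 5 letters under both.

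Genes of the other tissues and stages differed between the same letters. Summed over 14 oocyte and eggshell genes, the control L4 libraries A to E held 4241, 1145, 3325, 18 and 11 CPM and the overexpressing ones 2967, 3343, 2486, 64.7 and 54.9 CPM. The 6 yolk protein genes of the adult intestine held 12767, 4871, 10932, 19.2 and 4.61 CPM and 11038, 14783, 8341, 173 and 138 CPM. Both lists were thus high in A to C and far lower in D and E, and in D and E they were higher in the overexpressing library, as the sperm families were. Summed over 11 genes of the moulting epidermis the order of the letters differed, with 519, 1729, 786, 1541 and 1231 CPM in control and 124, 345, 437, 2602 and 1470.1 CPM in overexpressing larvae. In D and E the moulting sum was also higher in the overexpressing library. The part these differences had in the sperm results was not tested.

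Sperm genes outside the 4 families were also high in A to C and lower in D and E. In A and B the order of the strains differed from that of the 4 families pooled. There the overexpressing sum of the outside genes lay below the control, while the pooled sum was 1.10 and 1.13 times the control. By family, the nspd sums (0.714 and 0.854 times) and ssp sums (0.851 and 0.603 times) also lay below the control. The msp sums (1.30 and 1.26 times) and ssq sums (1.45 and 1.91 times) lay above it. The 36 of 37 listed genes found in the table summed to 1926, 2164, 1788, 301 and 73.5 CPM in control and 1489.8, 1340.1, 1914, 569 and 467 CPM in overexpressing L4 larvae. None of the 22 tested passed at L4, and the median log2 change was -0.02. At an unadjusted p under 0.05, 1 of the 22 was higher, beside 4.5% of all genes higher. That gene was gsp-4, which encodes a protein phosphatase of sperm, at 2.95 ± 1.46 CPM in control and 8.12 ± 1.57 CPM in overexpressing larvae (1.39 ± 0.47, edgeR adjusted p = 0.397). Markers of males were near 0, with the 7 genes summing to 0.713 to 5.57 CPM in the L4 libraries and pkd-2 and cwp-3 at 0 in all 10.

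**Figure D3:**
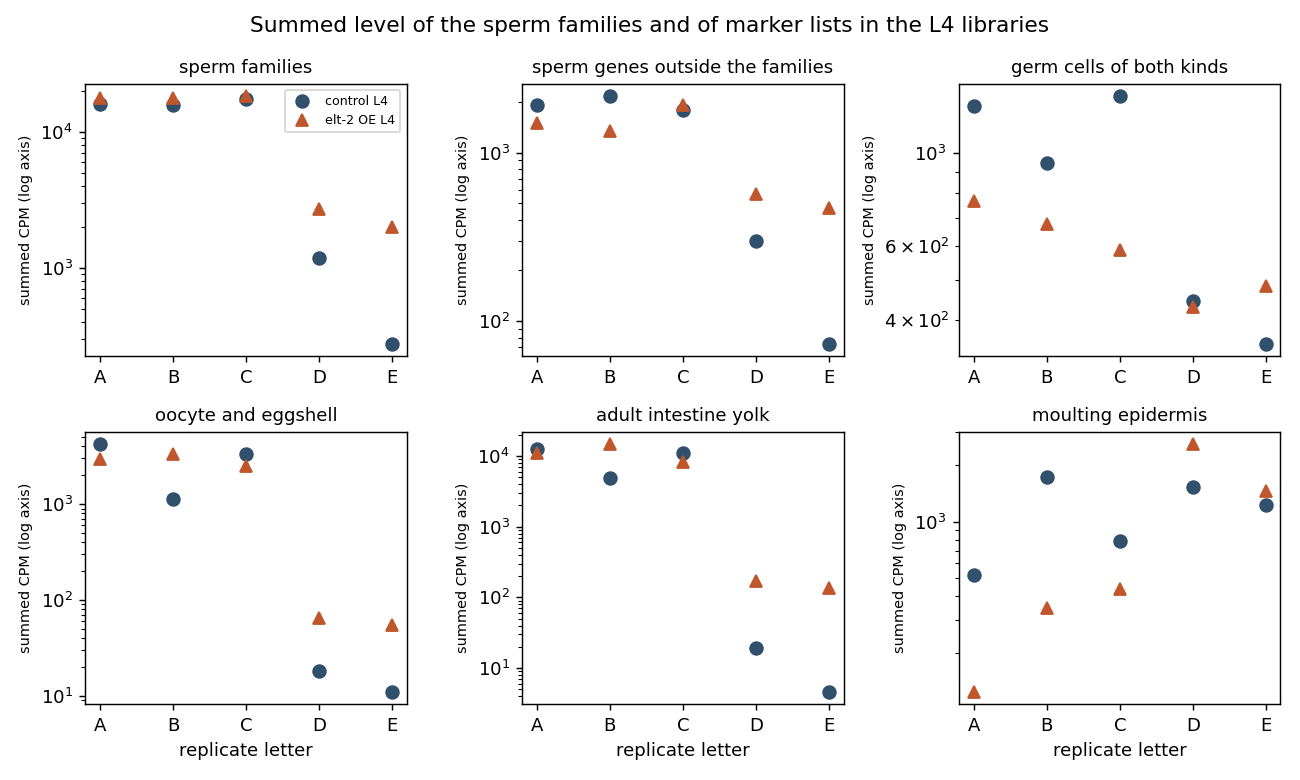
Summed CPM (log axis) of the 57 sperm family genes and of 5 marker lists in the L4 libraries, by replicate letter, with 1 point per library (circles control, triangles elt-2 overexpressing). The sperm, oocyte and yolk lists are high in A to C and low in D and E, where the overexpressing library lies above the control. The moulting list does not follow that order of letters, but in D and E its overexpressing library also lies above the control.

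Between L4 and Day 13 nearly all sperm RNAs fell. In control worms 47 of the 51 members tested were lower at Day 13 and 2 were higher, beside 23.7% lower and 21.9% higher over all 9063 genes tested. In overexpressing worms 50 of 52 were lower and 1 was higher, beside 23.4% and 25.8% over all 8863 genes. The median log2 change of the tested members was -4.73 in control and -5.29 in overexpressing worms. In a whole worm, fewer cells of a type and less RNA per cell cannot be told apart. Of the 52 members tested in the overexpressing strain, 5 reached the filter's level (0.408 CPM of plain totals) in no Day 13 library (msp-19, msp-63, msp-65, ssp-9 and ssp-11) and 1 in no L4 library (nspd-11), and such genes had to differ. Of the members, 46 reached it in at least 1 library of each age, and of these 45 were lower and 0 higher. Over all 8247 genes that did so, 21.4% were lower and 24.0% higher. Of the 52 members, 50 reached it in all 5 L4 libraries and 30 in all 5 Day 13 libraries. The 46 thus still hold members that passed the filter mainly through L4, and their share is not free of that selection.

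The leading genes of each family are given first. The top msp gene, msp-64, went from the L4 values above to 13.7, 46.6, 12.7, 6.60 and 1.89 CPM in control libraries A to E at Day 13 (log2 change -5.05 ± 1.23 SE, edgeR adjusted p = 0.00829) and to 7.28, 24.3, 20.1, 12.1 and 8.66 CPM in the overexpressing ones (-5.73 ± 0.82, 0.000237). The top nspd gene, nspd-2, had 53.0, 185, 38.9, 13.5 and 3.38 CPM in control (-4.88 ± 1.40, 0.0180) and 14.7, 44.2, 36.3, 25.9 and 18 CPM in overexpressing adults (-5.50 ± 0.83, 0.00034). In the control strain the ages overlapped, through Day 13 library B for msp-64 and libraries A to C for nspd-2, which lay above L4 library E. In the overexpressing strain they did not overlap.

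Across the families the groups did not overlap for 6 of the 51 members tested in control, beside 11.4% of all genes, and for 46 of 52 in overexpressing worms, beside 15.6%. For overexpressing worms it was 41 of the 46 members that reached the filter's level in at least 1 library of each age. Over all such genes it was 13.0%, and the limit given above for the 46 holds here too. ssq-1 fell to 22.6, 38.9, 21.3, 9.57 and 5.27 CPM in control (-5.27 ± 1.22, edgeR adjusted p = 0.00641) and to 26.7, 36.7, 39.5, 13.5 and 8.05 CPM in overexpressing adults (-5.58 ± 1.04, 0.00139). Of the 4 ssq genes ssq-2 changed the most in both strains, at -5.76 ± 1.42 in control and -6.19 ± 1.14 in overexpressing worms. ssp-16 fell by less, at -3.82 ± 1.06 and -4.38 ± 0.44, and its overexpressing L4 and Day 13 libraries (85.9 CPM and above, 11.0 CPM and below) were far apart.

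By p, the leading members of the control comparison were msp-71, msp-76, ssp-35, nspd-3 and msp-40. The pseudogene msp-71 went from 12.2, 29.3, 11.2, 7.88 and 1.06 CPM to 0.171, 0, 0.0991, 0.162 and 0.0451 CPM (-7.24 ± 1.06, edgeR adjusted p = 0.000393), so the groups did not overlap. msp-76 changed by -6.01 ± 0.99 (0.000829), msp-40 by -5.01 ± 0.93 (0.00175), nspd-3 by -4.66 ± 0.85 (0.00157) and ssp-35 by -3.34 ± 0.60 (0.00147). In the overexpressing strain the leading members were ssp-9 (-5.28 ± 0.52, 2.6e-05), ssp-16 (2.94e-05), msp-31 (-5.89 ± 0.67, 5.65e-05), ssp-11 (-5.56 ± 0.65, 6.56e-05) and msp-74 (-5.62 ± 0.69, 8.59e-05). Of these, ssp-9 and ssp-11 reached the filter's level only in L4 libraries, so that they could hardly be other than lower at Day 13.

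**Figure D4:**
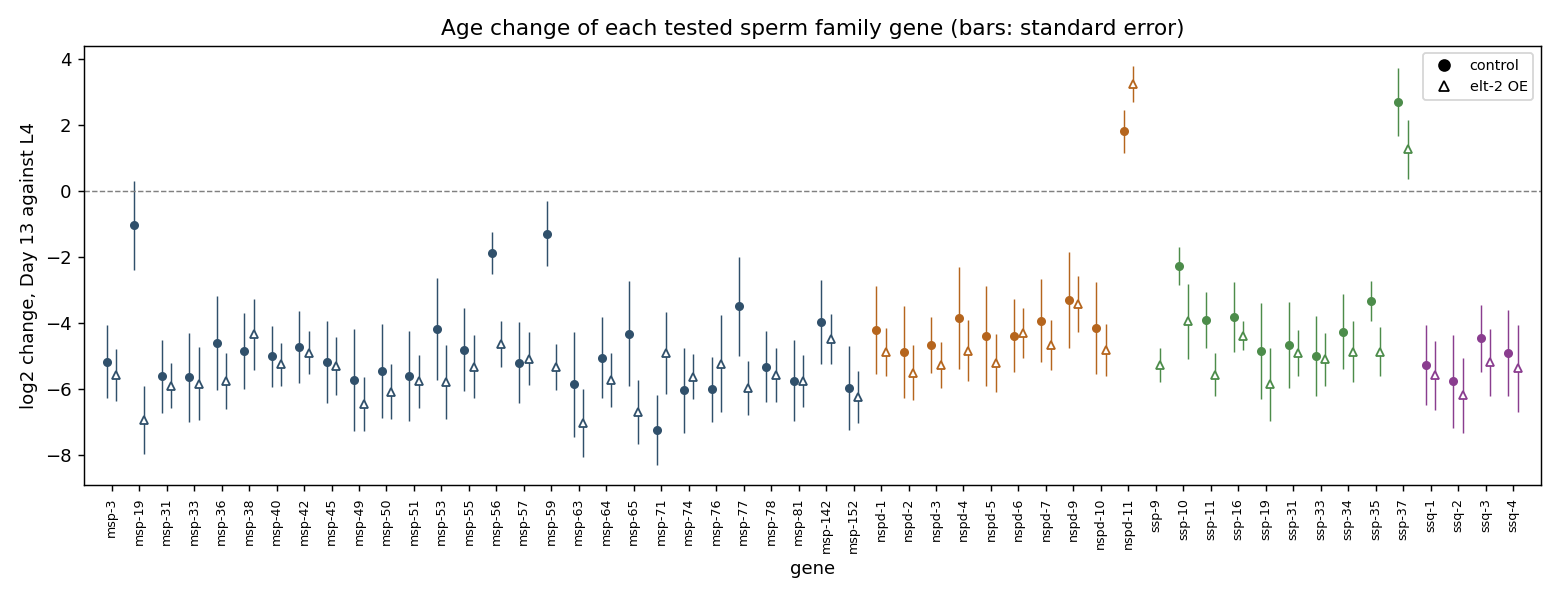
Fitted log2 change between L4 and Day 13 of each tested gene, in control (filled circles) and elt-2 overexpressing worms (open triangles), with standard errors, ordered by family. Nearly all lie far below 0, ssp-37 and nspd-11 lie above 0 in both strains, and msp-19, msp-56, msp-59 and ssp-10 lie nearer to 0 in control than in overexpressing worms.

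The exceptions were few. In control worms ssp-37 rose from 2.70, 0.392, 1.48, 0 and 0 CPM at L4 to 4.83, 5.94, 10.5, 9.48 and 5.05 CPM at Day 13 (2.69 ± 1.03, edgeR adjusted p = 0.0599), with no overlap. In overexpressing worms its Day 13 values were 0.453, 0.839, 2.53, 1.81 and 11.7 CPM and it was not called (1.27 ± 0.90, 0.277); without letter E the sign turned (-0.48). The pseudogene nspd-11 was higher at Day 13 in both strains, at 0.527 ± 0.338 against 2.21 ± 1.51 CPM in control (1.81 ± 0.66, 0.0494) and 0.195 ± 0.106 against 1.98 ± 1.13 CPM in overexpressing worms (3.24 ± 0.55, 0.000718). In overexpressing worms it reached the filter's level only at Day 13, so that call was fixed by how it came to be tested. The control calls rested on single letters: ssp-37 lost its call without B, C or D (adjusted p = 0.126, 0.105 and 0.101) and nspd-11 without B (0.154).

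The members that did not pass in control worms were msp-19 (-1.04 on the log2 scale) and msp-59. For msp-59 the control libraries A to E went from 7.81, 9.59, 15.2, 2.01 and 0.946 CPM to 2.91, 11.9, 1.78, 0.776 and 0.225 CPM (-1.28 ± 0.99, edgeR adjusted p = 0.328), and the fit with the letter as a block called it (-1.71 ± 0.48, 0.0189). The overexpressing libraries went from 11.9, 21.3, 16.6, 5.50 and 4.78 CPM to 0.0970, 0.187, 0.131, 0.347 and 0.731 CPM (-5.34 ± 0.70, 0.000129).

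Other gene lists changed with age as follows. Of the sperm genes outside the families, 12 of 18 tested were lower and 0 higher in control worms, and 12 of 16 lower and 0 higher in overexpressing worms; spch-1, a sperm chromatin protein gene, went from 571 ± 449 to 33.1 ± 29.5 CPM in control (-4.42 ± 1.08, edgeR adjusted p = 0.00869). Oocyte and eggshell genes rose, 8 of 14 in control and 13 of 14 in overexpressing worms, with 0 lower. Of the 6 yolk protein genes 2, vit-1 and vit-3, were lower and 0 higher in both strains. In control their median log2 change was -1.47, and in the fit with the letter as a block it was 0.22, with 1 gene lower. Muscle genes fell, 6 of 6 in both, and moulting genes 9 of 10 and 8 of 9. Of the germ cell genes 1 rose and 1 fell in control and 1 rose in overexpressing worms, of 14.

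Genes that act before and after the sperm proteins were also counted. Of 5 genes for sperm fate and sperm transcription, which summed to 1.76 to 3.84 CPM at L4 and 2.24 to 5.97 CPM at Day 13, 2 were tested with age in each strain; none passed in control, and elt-1 (1.31 ± 0.47, edgeR adjusted p = 0.0430) and fog-1 (1.14 ± 0.49, 0.0846) were higher at Day 13 in overexpressing worms. Of 8 genes through which the gonad receives the MSP signal, 6 were tested. In control, kin-1 and kin-2, the subunits of protein kinase A, and gsa-1, a G protein alpha subunit, were lower at Day 13 (the fit with the letter as a block also called the other 3 higher), and in overexpressing worms vab-1, a receptor that binds MSP, was higher (2.23 on the log2 scale, adjusted p = 0.0213). The summed level of the 8 genes was higher at Day 13 in each control letter, at 57.9 to 209 CPM against 22.1 to 118 CPM at L4. In overexpressing worms the sum was lower at Day 13 in letter A (63.2 against 66.9 CPM), close to level in B (59.4 against 57.2 CPM) and higher in C, D and E. None of these lists had a member past the adjusted threshold between the strains at L4 or at Day 13.

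The strains were then compared at Day 13, and no member passed: 0 of the 43 tested, beside 0.0117% of all 8544 genes (edgeR adjusted p). At an unadjusted p under 0.05, 3 members were lower in the overexpressing strain and 0 higher, beside 9.85% of all genes lower, and the Wald test of DESeq2 called 3 lower (msp-36, msp-59 and msp-77), beside 6.81% of all genes lower. The median log2 change of the members tested was -0.71, beside 0.03 over all genes. The family shares overlapped: the msp genes held 0.0158% ± 0.0098 of counts in control and 0.0150% ± 0.0045 in overexpressing adults (SD, n = 5), and the nspd genes 0.0222% ± 0.0220 and 0.0112% ± 0.0027.

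The 5 members with the lowest p were msp-59, msp-77, msp-36, nspd-10 and ssp-16. For msp-59, whose values are given above, the change was -3.57 ± 0.97 (edgeR adjusted p = 0.315). For msp-77 the control libraries A to E gave 8.25, 20.3, 6.54, 0.323 and 0.0451 CPM and the overexpressing libraries 0.323, 0.746, 0.915, 0.193 and 0.406 CPM (-3.81 ± 1.12, 0.315). The difference lay in letters A to C, where the control level was 6.54 CPM or more, and not in D and E. The changes of msp-36 (-2.08 ± 0.90, 0.349), nspd-10 (-1.70 ± 0.80, 0.389) and ssp-16 (-1.47 ± 0.72, 0.41) had the same layout, with control libraries A to C at 13.9 to 38.5, 15.4 to 61.7 and 15.5 to 44.2 CPM and D and E at 5 CPM or less.

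By letter, the overexpressing adults were lower than control for 49 of the 57 members in A and for 51 in B, with median differences of -1.25 and -1.29 on the log2(CPM + 0.5) scale. In C, D and E they were higher for 31, 37 and 47 members, with medians of 0.10, 0.21 and 1.2. In the control strain library B was the highest and E the lowest in the msp share (0.0311% and 0.00406%), while the overexpressing libraries stayed between 0.00928% and 0.0214%. The ssq genes again differed from the rest, with medians of 0.19, -0.07, 0.89, 0.20 and 0.42 in A to E, where the nspd genes had -2.02, -2.0, -0.42, 0.68 and 1.65. With plain library totals the counts of higher members were 16, 6, 31, 19 and 46 in A to E, so the direction in D depended on the scaling.

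**Figure D5:**
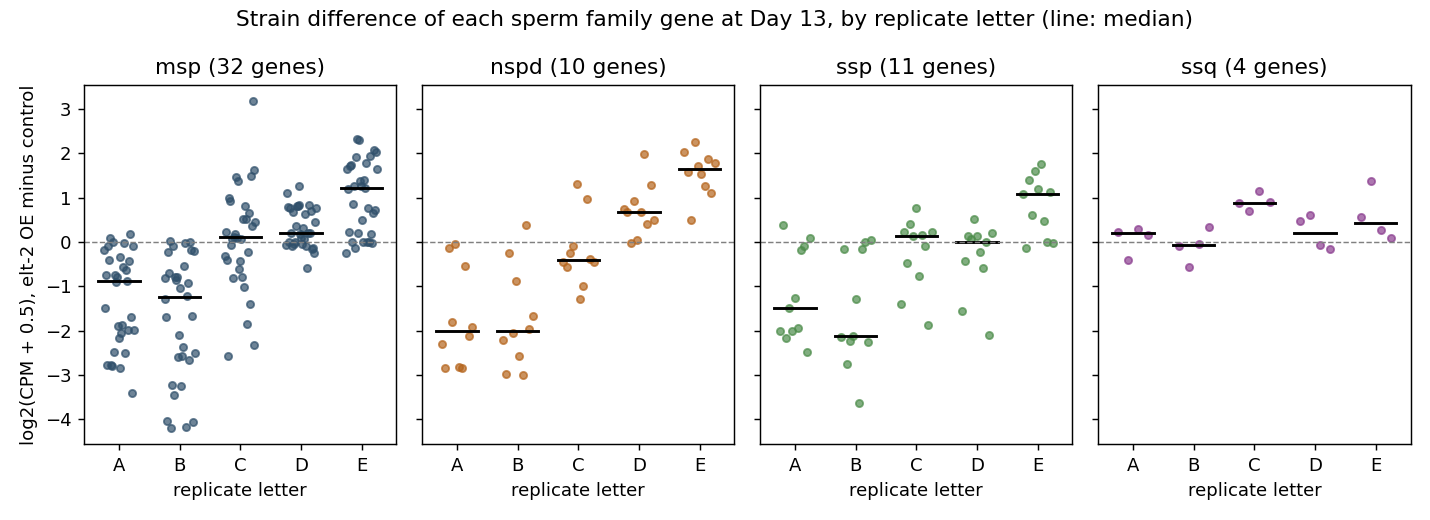
Difference between the overexpressing and the control Day 13 library of the same replicate letter, as log2(CPM + 0.5), for each of the 57 genes by family; each point is 1 gene and the line is the median. Most points lie below 0 in letters A and B and above 0 in letter E, and the ssq genes stay near or above 0.

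A fit on letters A to C alone called 22 members lower and 0 higher of 47 tested at Day 13, beside 2026 (23.2%) lower and 2068 higher of all 8716 genes. The lower members were 10 msp, 7 nspd and 5 ssp genes and 0 ssq genes, among them nspd-5 (-2.46 ± 0.52, edgeR adjusted p = 0.00736), nspd-1 (-1.89 ± 0.60, 0.0385) and msp-50 (-1.86 ± 0.57, 0.0350). A fit on D and E alone called 0, with a median of 1.01, beside -0.06 over all genes, and 5 of 41 members were higher at an unadjusted p under 0.05, beside 2.07% of all genes. Leaving out letter E called 3 members lower of 44, beside 4.79% of all genes lower: msp-59 (-4.52 ± 0.90, 0.0856), msp-77 (-4.05 ± 1.00, 0.0940) and ssp-37 (-2.46 ± 0.58, 0.0940). In the same libraries the oocyte list summed to 24489, 25399, 26814, 5812 and 6496 CPM in control and 13463, 16449, 16745, 5783 and 6049.9 CPM in overexpressing adults, and its part in the differences was not tested.

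Whether the age change differed between the strains was tested with all 20 libraries. No member passed, 0 of 54, beside 0.0% of all 10545 genes (edgeR adjusted p), and DESeq2 called 0 as well. At an unadjusted p under 0.05, 4 members, all msp genes, fell further in the overexpressing strain and 0 fell less, beside 1.93% of all genes. The lowest p values belonged to msp-59 (difference of the log2 changes -4.30 ± 1.25) and msp-56 (-2.93 ± 0.91), both at an adjusted p = 1.0. msp-56 had 1.81, 3.04, 1.29, 1.03 and 0.270 CPM in control and 0.129, 0.187, 0.392, 1.12 and 1.30 CPM in overexpressing adults, so the order of the strains in letters A to C was the reverse of that at L4.

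What was left of sperm RNA in old worms was unevenly spread. Among the members that passed the filter, nspd-1 had the highest mean level over the 10 Day 13 libraries, with 84.2, 213, 57.9, 12.4 and 3.47 CPM in control and 16.6, 45.3, 42.4, 21.1 and 15.8 CPM in overexpressing adults, and msp-51 the lowest mean over the same 10 libraries, at 0.583 ± 0.529 and 0.407 ± 0.227 CPM. Of the 32 msp genes, 8 averaged under 1 CPM in control and 15 in overexpressing adults, against 3 and 2 at L4. ssp-36 gave 0 counts in all 5 overexpressing Day 13 libraries, where 3 counts, the limit that a count of 0 allows, would be 0.118 to 0.205 CPM of plain library totals.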

How the data were processed

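RNA of whole worms was sequenced by 3SEQ in 20 libraries. The counts per gene were deposited by the authors as 1 table of unnormalized whole numbers; per the submitters' processing notes reads were mapped with Bowtie 0.12.7, and the counter, genome build, annotation, strand setting and treatment of duplicate reads are not given in the sources used here. Per-sample columns that matched no sample (3) were not used. Library totals were 10749795 to 42317549 counts, and 2408 of 21383 genes were 0 throughout. One strain name in the study's methods and the L4 animals named in the growth protocol differ from the sample labels, which were followed.

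Sequence names were matched to WBcel235 (Ensembl release 115) and, for 7 members that it left unnamed or named alike, to RefSeq. Sequences and promoter motifs were not analysed here, nor were genes alike in pattern to the leading msp gene sought, since the libraries fall into separate clusters. Low genes were removed with filterByExpr and libraries scaled by TMM, and each comparison was fitted on the whole table by the robust quasi-likelihood F test (edgeR 4.0.16, R 4.3.3; p adjusted by Benjamini-Hochberg over all genes tested, called at an adjusted p under 0.10, the false discovery rate of the study's own rank product test, on the 10 libraries compared). Alternatives were a block for the replicate letter, DESeq2 1.42.0 (its size factors and its Wald test), totals without the top 3% of genes, no filter, leaving out each letter, and letters A to C or D and E alone. Same-lettered libraries deviated together (r of their deviations from the group means, across genes, 0.523 to 0.8 at L4, 0.41 to 0.642 with age in control and 0.103 to 0.589 with age in overexpressing worms), and the letter was taken as a pairing there. At Day 13 letter A gave 0.073. Libraries of different letters were not correlated. At L4 these values therefore do not tell a pairing by letter from the distance between letters A to C and letters D and E. The labels name 5 biological replicates per group, so p-values measure the spread between these. The scripts were tested on simulated data. Pseudocount for letter differences was 0.5 CPM.

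The genes, the 9 marker lists and the letter sets were chosen with earlier results of these data known. Named members are the 3 highest of each family in control L4, the 5 with the lowest p in each pairwise comparison (2 for the difference of age changes), and the highest and lowest at Day 13; others were named after their values were seen.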

Additional observations from a re-analysis of the deposited data

Results flagged for a closer look

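In 64 sets of 5 libraries (the 4 family shares and 12 leading genes in each group), 2 had a library far from the other 4, both in control library B at Day 13: nspd-2 at 185 CPM, where the others were at 53.0 CPM or less, and msp-64 at 46.6 CPM, where the others were at 13.7 CPM or less. Chance alone marks about 1 set in 20. The same library held the highest msp share of its group (0.0311%).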

How the results depend on the processing

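The counts of members called with age, 49 in control and 51 in overexpressing worms, stayed within 1.5 times under all 12 alternatives. Between the strains at L4, where 0 members were called, the replicate block called 4 (of 211 genes called in all), DESeq2's Wald test 2 (of 461) and letters A to C alone 23 (of 2957); of the alternatives chosen after seeing the data, the block with totals without the top 3% of genes called 18 (of 377), the block with DESeq2's size factors 2 (of 185), and the block without single letters 0 to 2 (of 0 to 310). Totals without the top 3% of genes moved the median of all genes tested at L4 from 0.05 to 0.29 (log2), and that of the members from -0.04 to 0.45. At Day 13, where 0 were called, DESeq2's Wald test called 3 (of 741), letters A to C alone 22 (of 4094), and leaving out single letters 0 to 3 (of 0 to 554). For the difference of age changes letters A to C alone called 5 against 0 (of 138). On letters D and E alone 4 of the 5 named Day 13 differences turned positive: msp-59 (0.032), msp-36 (0.58), nspd-10 (1.10) and ssp-16 (0.62). The remaining gene, msp-77, was not tested there. The age change of ssp-37 in overexpressing worms ran from -0.48 (without letter E) to 2.14 (without letter A) when single letters were left out. It was negative in letters A to C alone (-0.94) and was called higher in letters D and E alone (4.25, edgeR adjusted p = 0.0038). Beside these, the replicate block added the fall of msp-59 in control worms and changed no other call; at Day 13, where letter A did not pair, it called 0. The msp shares moved by less than 1 SD. Causes were not tested. Counts limit the low members: 3 counts were 0.0709 to 0.279 CPM of plain totals, and this limit covers counting error only.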

Other observations

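The values of 4 msp genes in the overexpressing libraries A to C are given here; they were picked out after their values were seen, and their spread was not compared with that of the family. In the overexpressing L4 libraries A, B and C msp-76 had 971, 94.7 and 17.1 CPM, where the control libraries had 300.4, 240.3 and 187 CPM. msp-38 had 95.9, 33.9 and 8.51 CPM against 128, 87.6 and 96.9 CPM, and msp-33 265, 146 and 57.9 CPM against 308, 283 and 319 CPM. At Day 13 the overexpressing library C held 18.7 CPM of msp-76, 3.40 CPM of msp-38 and 4.84 CPM of msp-33, while libraries A and B held 0.323 CPM or less of each. msp-71, a pseudogene, had 16.6, 3.77 and 1.2 CPM in the overexpressing L4 libraries A to C and 17.9 and 12 CPM in D and E. msp-33 and msp-38 overlap other genes on the opposite strand, and how reads of similar copies were assigned is not given in the sources used here.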
